A study of Mus musculus with 4 samples.

Results

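The histone-modifying enzyme genes described here are 38 genes, of which 22 encode writers of histone marks and 16 encode erasers. The writers are methyltransferases with their core partners and acetyltransferases, and the erasers are demethylases and deacetylases. Their peaks are those whose centre lies inside such a gene or within 1 kb of an end of it, and those whose nearest protein-coding gene end belongs to it. This gave 296 of the 97699 peaks in the authors' deposited table, and each of the 38 genes had at least 1. Peaks were taken by position alone, while the genes were listed with earlier results of these data known. A peak within 1 kb of an end of its gene is called a gene-edge peak, another peak inside a gene a gene-body peak, and a peak outside every protein-coding gene intergenic. Proximity does not show which gene a peak acts on, and 24 of the 296 peaks lay nearer to an end of another protein-coding gene.

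Histone tails carry methyl and acetyl groups that mark open or closed chromatin. Writers such as EZH2, the MLL enzymes and p300 place these groups, and erasers such as LSD1 and the histone deacetylases remove them. Polycomb repressive complex PRC2 silences genes through methylation of H3K27, MLL and SETD1 enzymes mark promoters and enhancers on H3K4, and p300 and CBP acetylate histones at active enhancers. Arginine methylation belongs to the same system, since the type I enzyme CARM1 methylates p300 and CBP.

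The study profiled MC38/gp100, a mouse colon carcinoma line that carries the melanocyte antigen gp100, with ATAC-seq, which uses a transposase to cut and tag accessible DNA. There were 4 libraries, 2 from cells given DMSO and 2 from cells given 1 µM GSK3368712, which blocks the type I class of protein arginine methyltransferases, for 5 days. Both groups were the same line in the same medium, and no genetic change separates them in the labels. Whether the 2 libraries per group stem from different cultures is not in the labels, and the p-values therefore measure library spread that may be technical. Levels below are the authors' group means in normalised reads, and changes are log2 values, inhibitor minus DMSO. The spread between libraries and the depth of each library were not analysed here. A standard error, given after ±, was derived from the change and the authors' two-sided p-value. Of 10 epithelial marker genes, Krt8 and Lgr5 had a gene-edge peak and the other 8, among them Epcam, Cdh1, Vil1 and Cdx2, had none, while 4 of 7 fibroblast and endothelial genes had 1 or more, at up to 1574 normalised reads in DMSO at Col1a1. Of 7 blood markers 5 had gene-edge peaks, at 18.1 to 176 normalised reads in DMSO. Of 5 melanocyte markers, only Pmel, the gp100 gene, had 1, nearest to an end of Rab5b. Summed over gene-edge peaks, the epithelial, blood, fibroblast with endothelial, and melanocyte lists had 566, 394, 2480 and 2800 normalised reads in DMSO and 601, 403, 2450 and 2540 under the inhibitor. Over all their peaks, 4 of 41 tested epithelial ones were lower by the authors' DESeq2 test, or 9.76%, near Cdh1, Epcam and Cdx2. Of 77 fibroblast and endothelial ones 4 were lower, or 5.19%, and 1 higher, with none called among 22 blood and 8 melanocyte ones. Over all tested peaks 6.08% were lower and 0.491% higher. At an unadjusted p under 0.05, 6 epithelial, 8 fibroblast and endothelial, 2 blood peaks and 1 melanocyte peak were lower. At that threshold 5 fibroblast and endothelial peaks were higher. Over all tested peaks 14.3% were lower and 2.17% higher at this threshold. The part of other cell types in the results below was not tested.

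Histone-modifying enzyme genes lost accessibility at 13 peaks and gained it at none. In bulk libraries, a lower level in every cell and a loss in some cells cannot be told apart. The losses belonged to 8 genes: the class IIa deacetylase genes Hdac4 and Hdac9, the demethylase genes Kdm1a, Kdm2b and Kdm4c, and the writer genes Nsd2, Dot1l and Eed. Of 220 peaks tested, 13 had an adjusted p under 0.05 with a lower level under the inhibitor, or 5.91%, against 6.08% of all 74967 tested peaks in the authors' deposited table. The share of lower peaks was thus close to the background. No peak was called higher by the authors' DESeq2 test, against 0.491% of all tested peaks. At an unadjusted p under 0.05, 36 member peaks were lower and 2 higher in the authors' deposited table, or 16.4% and 0.909%, beside 14.3% and 2.17% of all tested peaks. The median log2 change was -0.08 over the 220 peaks and -0.07 over all tested peaks, and 63.6% of the 220 were below 0, beside 62.2% of all tested peaks. Scaling changes to the groups' summed reads over peaks took the member median to -0.001 and the calls over all peaks from 4558 lower and 368 higher to 2701 and 628, and centring on the median took them to 2842 and 577. A further 76 member peaks were too weak to enter the authors' adjustment, and no statement is made on them.

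**Figure D1:**
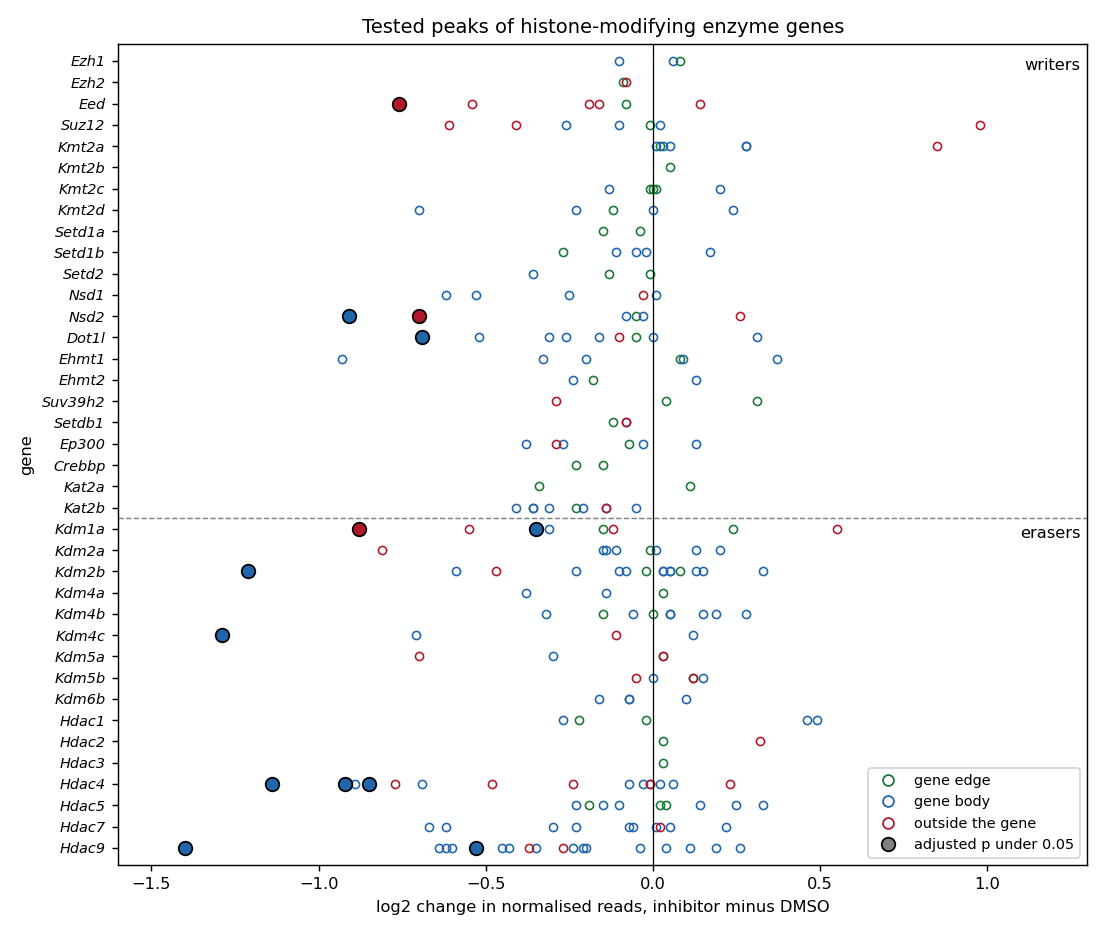
Log2 change in normalised reads, inhibitor minus DMSO, of each of the 220 tested peaks (points), by gene, with writers above the dashed line and erasers under it. Colours give the location relative to the gene, and the 13 large filled points had an adjusted p under 0.05 in the authors' deposited table. All 13 lie left of 0, and none is a gene-edge peak.

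All 13 called losses lay more than 1 kb from the ends of their genes. Of 45 tested gene-edge peaks 0 were lower and 0 higher, against backgrounds of 1.53% and 0.252% by the authors' DESeq2 test. At an unadjusted p under 0.05, 2 were lower and 0 higher, or 4.44% and 0%, beside 6.04% and 1.78% of all gene-edge peaks. With a background of 1.53%, a count of 0 among 45 is no result about these genes. Of 146 gene-body peaks, 9 of them inside a gene other than the member, 11 were lower, or 7.53%, beside 6.69% of all gene-body peaks, and none was higher, beside 0.445%. Of 29 intergenic peaks 2 were lower, or 6.9%, beside 7.37% of all intergenic peaks, and none was higher, beside 0.648%. Median log2 changes were -0.01 at gene edges, -0.09 in gene bodies and -0.19 in intergenic DNA, beside -0.03, -0.09 and -0.10 for all tested peaks of these kinds. Writers had 4 lower peaks among 100 tested, or 4.0%, and erasers 9 among 120, or 7.5%, beside 6.08% of all tested peaks. The difference between these shares was not tested. Median log2 changes were -0.095 for writers and -0.07 for erasers.

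The peaks at the starts of the genes are described for their levels, since few peaks at starts were called anywhere. RefSeq gave a start with strand for 28 of the 38 genes, and 27 of these had a peak centred within 1 kb of a start. Among 41 tested peaks at starts, 0 were lower and 0 higher by the authors' DESeq2 test, beside 1.8% and 0.261% of all peaks at RefSeq starts, so the count of 0 is no result about these genes. At an unadjusted p under 0.05 the counts were also 0 and 0, beside 6.58% and 1.72%. The median log2 change of the 41 peaks was -0.01, beside -0.03 for all tested peaks at starts, whose middle 50% ran from -0.11 to 0.05. For 8 genes with no start in that table, the gene-edge peak of highest level was taken instead. Over the 35 genes with such a peak, the log2 change ran from -0.27 to 0.12 with a median of -0.01, and it was at most 0.1 in size for 24 of them and at most 0.2 for 33. Nsd1, Kdm6b and Hdac9 had no peak of this kind.

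Among the PRC2 genes, the peak at the start of Ezh2, a catalytic subunit, had 1409 normalised reads in DMSO and 1323 under the inhibitor, a log2 change of -0.09 (adjusted p = 0.705, authors' deposited table). At Suz12, a core subunit, the level was 1833 and 1820. Ezh1, the other catalytic subunit, had 440 and 465 normalised reads at its start. None of these starts passed the test. The H3K4 methyltransferase genes Kmt2a, Kmt2b, Kmt2c and Kmt2d had log2 changes of 0.02, 0.05, 0.01 and 0.00, and Setd1a had -0.15. Setd1b had the lowest value of the 35, going from 942 to 781 normalised reads at a peak nearer to an end of Rhof, a change of -0.27 (adjusted p = 0.074, authors' deposited table). The H3K36 methyltransferase genes Setd2 and Nsd2 had -0.01 and -0.05. Among the H3K9 methyltransferase genes, Ehmt1, Ehmt2, Suv39h2 and Setdb1 had 0.08, -0.18, 0.04 and -0.12. The acetyltransferase genes Ep300, Crebbp, Kat2a and Kat2b had -0.07, -0.15, 0.11 and -0.23, and a further Kat2a edge peak, nearest to Dhx58, went from 576 to 455 normalised reads (adjusted p = 0.061, authors' deposited table).

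Erasers had log2 changes between -0.19, at Hdac5, and 0.12 at these peaks. The peak at the start of Kdm4a, a demethylase of H3K9 and H3K36, had 2592 normalised reads in DMSO and 2647 under the inhibitor, a log2 change of 0.03 with a 95% interval from -0.09 to 0.15 by the typical error of its level. Kdm4b, its close relative, had 2557 in both groups. Kdm5a and Kdm5b, which remove H3K4 methylation, had log2 changes of 0.03 and 0.12. The class I deacetylase genes Hdac1, Hdac2 and Hdac3 had -0.02, 0.03 and 0.03, and none of their 8 tested peaks was called. That count is no result about these genes, beside 6.08% lower and 0.491% higher of all tested peaks. Intervals were widest where reads were few, as at Kdm5b, with 256 normalised reads in DMSO and an interval from -0.20 to 0.44. The change there is thus known only to within those bounds. Kdm6b, which encodes an H3K27 demethylase, had 4 peaks inside the gene, the broadest going from 3666 to 3492 normalised reads. Another of its peaks had a log2 change of -0.16 (adjusted p = 0.106, authors' deposited table).

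**Figure D2:**
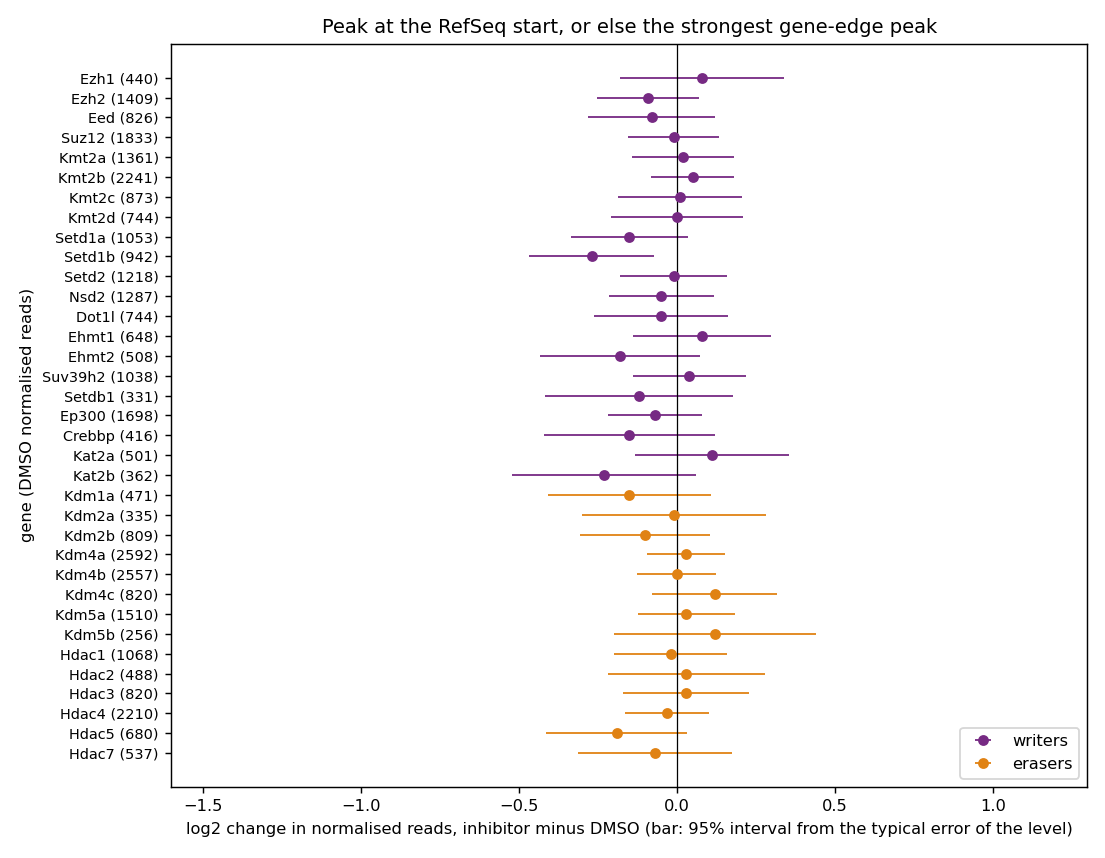
Log2 change, inhibitor minus DMSO, at the peak of each gene's RefSeq start or, for 8 genes, at its gene-edge peak of highest level. Bars are 95% intervals from the typical error of peaks of that level, and the number after each gene is its DMSO level in normalised reads. All 35 values lie between -0.27 and 0.12, and none passed the authors' test.

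Start regions of genes that lost other peaks are shown next. Each was covered by an open peak whose level did not pass the test, while a peak elsewhere in the same locus was lower. Genes with the most lower peaks were taken first, up to a set number, so Kdm2b and Kdm4c, which also had such starts, are not shown. The regions shown are the 300 bases around the RefSeq start, 250 before and 50 after it, on the strand of the gene in GRCm38.p6. Hdac4 lies at chr1:92180292-92180591 on the minus strand, Kdm1a at chr4:136602674-136602973 on the minus strand, Eed at chr7:89980927-89981226 on the minus strand and Dot1l at chr10:80754953-80755252 on the plus strand. Capitals mark matches on either strand to any of 7 motifs, and overlapping matches run together. Those found here are GGGCGG, bound by SP and KLF factors, the box CCAAT, bound by NF-Y, and the ETS core CCGGAAG. Searched without a match were the AP-1 motif TGANTCA, the cAMP response element TGACGTCA, the E-box CACGTG and the NRF1 motif.
Hdac4: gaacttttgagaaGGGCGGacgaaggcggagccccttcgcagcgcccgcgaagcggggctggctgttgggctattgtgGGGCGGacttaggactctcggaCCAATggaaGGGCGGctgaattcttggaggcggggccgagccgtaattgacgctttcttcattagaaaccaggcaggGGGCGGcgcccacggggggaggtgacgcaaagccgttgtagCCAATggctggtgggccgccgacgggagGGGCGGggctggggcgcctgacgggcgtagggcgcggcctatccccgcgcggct
Kdm1a: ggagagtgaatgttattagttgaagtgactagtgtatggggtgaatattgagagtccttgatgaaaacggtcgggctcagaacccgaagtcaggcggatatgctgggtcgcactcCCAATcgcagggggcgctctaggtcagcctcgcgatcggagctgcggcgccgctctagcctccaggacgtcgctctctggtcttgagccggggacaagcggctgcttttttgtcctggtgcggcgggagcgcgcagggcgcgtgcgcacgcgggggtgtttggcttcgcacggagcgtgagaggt
Eed: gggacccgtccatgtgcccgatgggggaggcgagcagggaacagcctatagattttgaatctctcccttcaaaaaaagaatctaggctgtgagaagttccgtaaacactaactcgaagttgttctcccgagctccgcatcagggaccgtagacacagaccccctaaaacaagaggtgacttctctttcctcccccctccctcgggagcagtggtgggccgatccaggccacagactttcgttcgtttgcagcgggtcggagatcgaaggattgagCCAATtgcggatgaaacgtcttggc
Dot1l: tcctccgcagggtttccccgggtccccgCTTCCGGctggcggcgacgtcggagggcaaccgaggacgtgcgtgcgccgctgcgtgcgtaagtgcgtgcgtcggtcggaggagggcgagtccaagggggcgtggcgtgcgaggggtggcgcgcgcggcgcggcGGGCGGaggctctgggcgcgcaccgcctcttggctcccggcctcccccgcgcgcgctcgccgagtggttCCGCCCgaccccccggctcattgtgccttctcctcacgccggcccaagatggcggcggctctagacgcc

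Those stretches held 32, 29, 17 and 49 CpG dinucleotides, against a median of 28.5 over the 38 promoters in RefSeq's table for 28 of these genes and 7 over all 32544 promoters. Hdac4 had 5 matches to the SP and KLF box and 2 to the NF-Y box, and Dot1l had 2 to the SP and KLF box and 1 ETS core. Kdm1a and Eed each had 1 match, to the NF-Y box. The SP and KLF box occurred in 22 of the 38 promoters, or 57.9%, against 35.9% of all promoters, and the NF-Y box in 28.9% against 37.4%. The AP-1 motif occurred in 10.5% against 7.79%, the E-box in 10.5% against 7.17%, the ETS core in 5.26% against 8.91%, the cAMP response element in 2.63% against 1.8%, and the NRF1 motif in 0% against 0.974%. These shares describe letters in the window and carry no test, and promoters of 1 gene can overlap.

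Hdac4 had the most lower peaks of the 38 genes, 3 among 15 tested. Hdac4 encodes a class IIa deacetylase, a family that shuttles between nucleus and cytoplasm and represses MEF2 factors. The peak over the Hdac4 start had 2210 normalised reads in DMSO and 2165 under the inhibitor, a log2 change of -0.03 (adjusted p = 0.932, authors' deposited table). A peak 3.10 kb upstream of that start and still inside the gene's longest extent, at chr1:92183238-92183653, fell from 419 to 190 normalised reads. Its log2 change was -1.14 ± 0.16 (adjusted p = 2.66e-10, authors' deposited table), and it passed under each of the 9 alternative settings. Of these, only scaling to summed reads, centring on the median and leaving out the level filter gave it a new adjusted p. Near the far end of the gene, a peak at chr1:91955942-91957157 fell from 787 to 437 normalised reads, a change of -0.85 ± 0.11 (adjusted p = 6.54e-11, authors' deposited table). Another, at chr1:91944948-91945935, fell from 155 to 82.1 normalised reads (adjusted p = 0.00805, authors' deposited table). These latter peaks lay within 15.9 kb that held 4 tested peaks, and the other two had log2 changes of -0.69 and -0.89 (adjusted p = 0.234 and 0.15, authors' deposited table). The 4 tested peaks between this stretch and the start had log2 changes from -0.07 to 0.06. The stretch was picked after its values were seen.

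Hdac9, another class IIa gene, had the most tested peaks, 18 over 625 kb. On the authors' scale 14 of them were below 0, beside 62.2% of all tested peaks. A peak 1.26 kb from the far end of the gene, at chr12:34048593-34049089, fell from 64.4 to 24.4 normalised reads, a log2 change of -1.40 ± 0.40 (adjusted p = 0.0133, authors' deposited table). It is a weak peak, called in 2 DMSO libraries and 1 inhibitor library. A stronger peak inside the gene, at chr12:34486673-34488311, fell from 282 to 195 normalised reads. Its adjusted p in the authors' deposited table was 0.0229, and 0.0943 with changes scaled to the groups' summed reads over peaks, which ended the call. A further 5 Hdac9 peaks were lower at an unadjusted p under 0.05 without passing, the closest going from 174 to 111 normalised reads (adjusted p = 0.0664, authors' deposited table). Counting the 2 calls, 7 of the 18 were lower at that threshold, beside 14.3% of all tested peaks. The difference from all peaks was not tested. Hdac9 had no peak at either of its RefSeq starts.

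The other class IIa genes, Hdac5 and Hdac7, had no called peak among 9 and 10 tested. With 6.08% of all tested peaks lower, these counts are no result about either gene. Median log2 changes were -0.24 for Hdac4, -0.31 for Hdac9, 0.02 for Hdac5 and -0.065 for Hdac7. Class IIa genes held 23.6% of the tested member peaks and 38.5% of the lower ones, with 5 lower of 52 tested, or 9.62%, beside 6.08% of all tested peaks. The difference between the 4 genes was not tested.

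**Figure D3:**
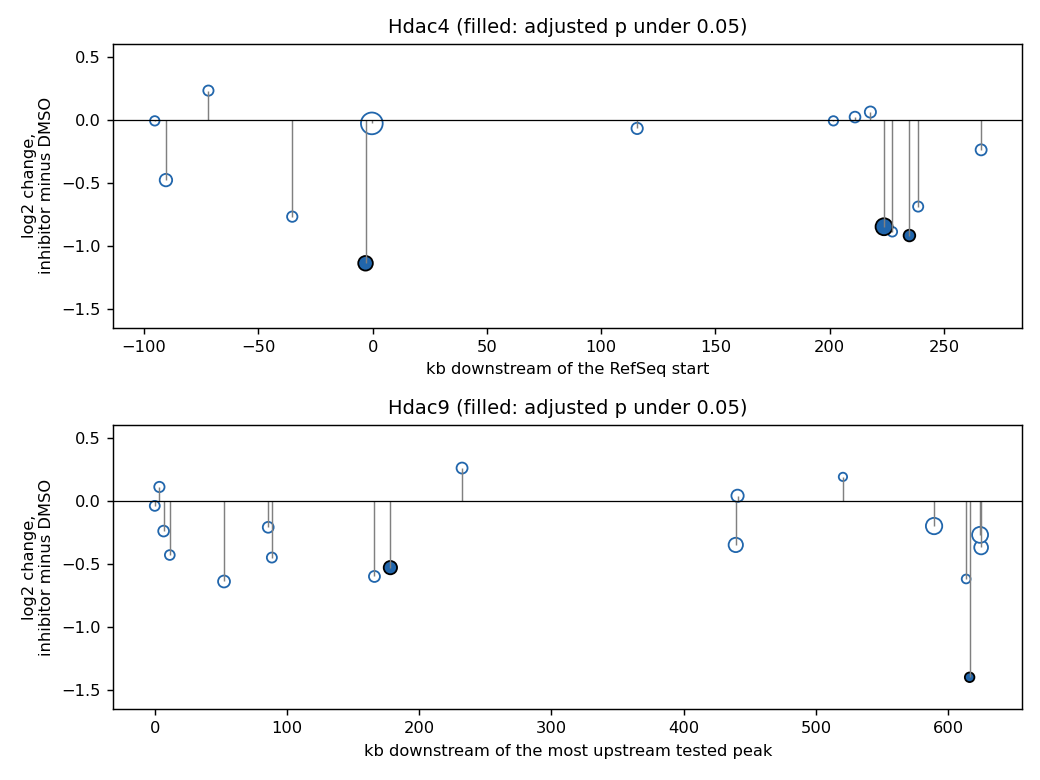
Log2 change, inhibitor minus DMSO, of the tested peaks of Hdac4 (15, top) and Hdac9 (18, bottom) by distance along the gene's direction, in kb from the RefSeq start for Hdac4 and from the most upstream tested peak for Hdac9. Larger circles have more DMSO reads and filled circles passed the test. The large circle at the Hdac4 start sits at -0.03 beside a filled circle at -1.14.

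Kdm1a encodes LSD1, which removes methyl groups from H3K4 with the CoREST complex. The gene had 2 lower peaks among 8 tested, beside 6.08% lower of all tested peaks. A peak 15.1 kb beyond the gene's far end, inside another gene, at chr4:136535122-136535654, fell from 194 to 105 normalised reads, a log2 change of -0.88 ± 0.21 (adjusted p = 0.00138, authors' deposited table). A peak inside the gene but nearer to an end of Luzp1 fell from 781 to 613 normalised reads (adjusted p = 0.0224, authors' deposited table). This change of -0.35 was the smallest among the 13 calls, and scaling to summed reads ended it, with an adjusted p of 0.149. Another peak, 4.10 kb inside the start, went from 755 to 609 normalised reads; it missed the threshold (adjusted p = 0.054, authors' deposited table). The start itself had 471 and 425 normalised reads.

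Kdm2b and Kdm4c each had 1 weak lower peak inside the gene. Kdm2b, whose protein removes H3K36 methylation and recruits a Polycomb complex to CpG islands, had 15 tested peaks, of which 1, at chr5:122979272-122979686, fell from 60.5 to 26.2 normalised reads (adjusted p = 0.0368, authors' deposited table). Its peak at an internal RefSeq start had 809 and 755 normalised reads. Kdm4c had a peak at chr4:74290450-74290901 that fell from 54.9 to 22.5 normalised reads (adjusted p = 0.0387, authors' deposited table). That peak was called in 2 DMSO libraries and 0 inhibitor libraries. At its start Kdm4c had 820 and 891 normalised reads, the higher level under the inhibitor, and did not pass. Scaling to summed reads ended both calls, with adjusted p-values of 0.0773 and 0.0782. Kdm2a, Kdm4a, Kdm4b, Kdm5a, Kdm5b and Kdm6b had no called peak among 8, 3, 9, 4, 5 and 4 tested. With 6.08% of all tested peaks lower, these counts are no result about the 6 genes.

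Among the writers, Nsd2 had 2 lower peaks among 6 tested, beside 6.08% lower of all tested peaks. NSD2 places dimethyl marks on H3K36. An intergenic peak 17.1 kb from the gene, at chr5:33803278-33803850, fell from 588 to 362 normalised reads, a log2 change of -0.70 ± 0.13 (adjusted p = 1.03e-05, authors' deposited table). A weaker peak inside Nsd2, nearer to an end of Gm52782, fell from 91.8 to 48.8 normalised reads (adjusted p = 0.0476, authors' deposited table). Scaling to summed reads, and testing without the level filter, ended this last call, at 0.108 and 0.0601. The gene-edge peak of Nsd2 had 1287 and 1243 normalised reads.

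Dot1l, the gene for the H3K79 methyltransferase, had 1 lower peak among 9 tested, beside 6.08% lower of all tested peaks. The peak lay 3.66 kb downstream of its start, at chr10:80758754-80758974, and fell from 206.5 to 128 normalised reads (adjusted p = 0.0203, authors' deposited table). Scaling to summed reads ended that call, at 0.0684. Other Dot1l peaks did not pass, including a strong peak 3.29 kb upstream of the start with 3397 and 3169 normalised reads. At the start itself the level was 744 and 719. Eed encodes the PRC2 subunit that binds methylated H3K27, and its lower peak lay 61.6 kb upstream of the gene, at chr7:90042339-90042862. It fell from 189 to 111 normalised reads, a log2 change of -0.76 ± 0.21 (adjusted p = 0.00934, authors' deposited table). The Eed start had 826 and 781 normalised reads.

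**Figure D4:**
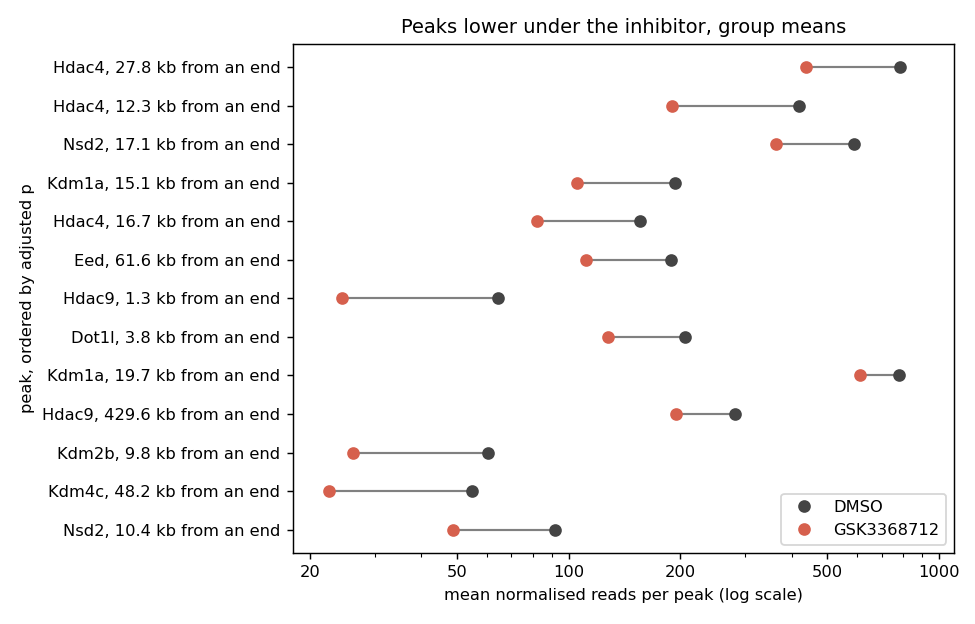
Group means in normalised reads, on a log scale, of the 13 peaks lower under the inhibitor, ordered by the authors' adjusted p, with the distance of the peak's centre from the nearer end of its gene. Dark points are DMSO and red points GSK3368712, each the mean of 2 libraries. DMSO levels run from 54.9 at Kdm4c to 787 at Hdac4.

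The 13 lower peaks varied in level and width. Their DMSO levels had a median of 194 normalised reads, 4 of them were under 100, and widths ran from 221 to 1639 bp. Of the 13, 4 changed by at least 1 log2 unit, at Hdac9, Kdm4c, Kdm2b and Hdac4, and the first 3 of these were under 100 normalised reads in DMSO. In 9 of the 13 the peak was called in both libraries of both groups, and in 4 it was called in fewer inhibitor libraries. With changes scaled to the groups' summed reads over peaks, 7 of the 13 calls in 5 genes were left.

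The other writers and erasers gave values without a call. None of 25 tested peaks of the 6 H3K4 methyltransferase genes, 15 of the 4 H3K9 genes and 19 of the 4 acetyltransferase genes was called, with median log2 changes of 0.00, -0.08 and -0.23. With 6.08% of all tested peaks lower and 0.491% higher, these counts of 0 are no result about the genes. On the authors' scale 17 of 19 acetyltransferase peaks were below 0, or 89.5%, beside 62.2% of all tested peaks, among them all 9 of Kat2b, from -0.41 to -0.05. At an unadjusted p under 0.05, 2 of the 19 were lower, or 10.5%, beside 14.3% of all tested peaks. The 2 peaks of all the member genes that were higher at an unadjusted p under 0.05 were weak intergenic peaks near Suz12 and Kmt2a, which encodes MLL1. The Suz12 peak went from 28.8 to 56.9 normalised reads and the Kmt2a peak from 49.5 to 89.3 (adjusted p = 0.136 and 0.0952, authors' deposited table). All 7 tested Kmt2a peaks were above 0 on the authors' scale, from 0.01 to 0.85. The acetyltransferase genes as a group, Kat2b and Kmt2a were singled out after their values were seen.

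Further genes of the system are set beside the same background of 6.08%. Of 209 tested peaks of 37 other histone enzyme genes, 11 were lower, or 5.26%, in 9 genes. None was higher, beside 0.491% of all tested peaks. At an unadjusted p under 0.05, 33 were lower and 1 higher, beside 14.3% and 2.17% of all tested peaks. None of their 43 gene-edge peaks was called by the authors' DESeq2 test. Beside 1.53% lower of all gene-edge peaks, that is no result about these genes. At an unadjusted p under 0.05, 3 of the 43 were lower, beside 6.04% of all gene-edge peaks. Kdm1b, the relative of Kdm1a, had 2 lower peaks, and the stronger call, inside the gene, fell from 399 to 215 normalised reads (adjusted p = 1.45e-06, authors' deposited table). The strongest calls of the H4K20 methyltransferase genes Kmt5b and Kmt5a and of Smyd3 fell by 0.68, 0.60 and 0.40 on the log2 scale. Of 267 tested peaks of 40 genes for subunits of the writer and eraser complexes, 17 were lower, or 6.37%, in 11 genes. Another 2 were higher, beside 0.491% of all tested peaks. At an unadjusted p under 0.05, 36 were lower and 9 higher, beside the same 14.3% and 2.17%. Tada3, a subunit of KAT2 acetyltransferase complexes, had 2 lower peaks, and the one 2.02 kb from the gene fell from 296 to 108 normalised reads (adjusted p = 5.78e-11, authors' deposited table). Jarid2, a PRC2 cofactor, had 2 lower peaks, the stronger call falling from 296 to 152 normalised reads, and Kmt2e, an MLL relative, had 3, the strongest falling from 484 to 300. Gatad2a, a subunit of the NuRD deacetylase complex, had calls in both directions. A peak 5.14 kb outside the gene fell from 1144 to 861 normalised reads (adjusted p = 0.000739, authors' deposited table), and a peak inside it rose from 237 to 333 (adjusted p = 0.0324, authors' deposited table). Here 3 of 55 gene-edge peaks were lower, or 5.45%, at Tada2a, Mta3 and Aebp2, beside 1.53% of all gene-edge peaks, and the difference from the enzyme genes was not tested. These 3 genes and Gatad2a were named after their values were seen.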

How the data were processed

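ATAC-seq was run on 2 DMSO and 2 GSK3368712 libraries. Reads were processed on mm10 with DiffBind 2.8.0, DESeq2, MACS2 2.1.1.20160309, Picard 1.113 and HISAT2 2.1.0, as named in the submitters' processing notes. For settings, the transposase offset and peak calling per library, the answer is not given in the sources used here. As deposited by the authors, the data are 1 table of log2 mean normalised reads per group, their log2 fold, p-value and adjusted p-value, and the count of libraries in each group with the peak, per the file headers. Per-library values and depths were not analysed here, so no new test across libraries and no counting interval was made.

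Members and lists were chosen with earlier results of these data known. A peak counts as tested if its adjusted p is under 1 or its log2 level is above 5.16 (35.8 normalised reads), which adds 176 peaks with p of at least 0.997. Genes came from RefSeq's GRCm38.p6 table, matched for 38 of 38 symbols, and starts, strands and sequences from RefSeq's promoter table. Library numbers per peak were read with DMSO as DiffBind's first group, from the sign of the authors' fold. Derived errors are the change divided by the normal quantile of the p-value; typical errors are medians over peaks within 0.25 log2 of the level. Genes named have a called peak, a start or edge peak, or the most peaks; from the other lists, up to 4 genes with the smallest adjusted p, of which 1 is not reported here. Python 3.11.15, numpy 2.4.6, pandas 2.3.3 and scipy 1.17.1 were used, and the rescaling was tested on simulated data.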

Additional observations from a re-analysis of the deposited data

How the results depend on the processing

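The 13 lower peaks became 6 at an adjusted p under 0.01, 4 with at least 1 log2 unit, and 7 both scaled to summed reads over peaks and centred on the median of tested peaks. Genes with a lower peak numbered 4, 4, 5 and 5 in that order, against 8. Eraser genes numbered 2, 4, 3 and 3, against 5, and writer genes 2, 0, 2 and 2, against 3. The median change of -0.08 became -0.001 scaled to summed reads and -0.01 centred, since these take -0.079 and -0.07 off every log2 change. Gene edges kept 0 lower peaks and no higher peak appeared in the 9 settings run. The stricter thresholds and the restrictions of peaks keep the authors' changes and adjusted p, so no such call could appear under them. The settings were chosen with earlier results known. No call reversed. Without a level filter 12 of 13 calls were left. Restricting peaks to those called in both libraries of a group kept 13 of the 13. Restricting them to the nearest gene end, gene ends and bodies, or 50 kb kept 11, 10 and 12. These restrictions only drop peaks and keep the authors' adjusted p, so no kept call could end under them. Across settings the adjusted p ran from 6.54e-11 to 8.83e-09 for the strongest Hdac4 peak and from 0.0224 to 0.149 for the Kdm1a peak near Luzp1. Leaving out replicates and DESeq2 against edgeR were not run, since only group means were used. No paired analysis was possible because the table's columns carry no replicate numbers.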
